A study of Mus musculus with 15 samples.

Results

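Transcripts of 40 collagen genes were measured in microdissected colon adenoma and colon epithelium of Apc+/Min-FCCC mice. The members were the non-control probes whose gene name in the scanner files has the form of a collagen chain (Col, a type number, a, a chain number). This gave 78 probes of 41174, for 40 genes of 27752 gene-level features, with 1 probe used per gene. Of the 40 genes, 11 encode fibrillar chains and 6 encode type IV chains, which form the basement membrane network. The others were sorted by textbook class: 3 chains of anchoring fibrils and multiplexins, 3 beaded filament chains, 3 short chain network chains, 9 fibril-associated (FACIT) chains, 4 transmembrane chains and Col28a1.

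All mice were male, carried the Min allele of the tumor suppressor gene Apc on a C57BL/6J background and were sorted by colonoscopy at 6 to 8 weeks of age. Untreated adenoma (3 arrays) came from tumor-bearing mice on plain chow, and treated adenoma (4 arrays) from tumor-bearing mice given sulindac at 300 ppm and atorvastatin at 100 ppm in chow for 7 days. Sulindac is an anti-inflammatory drug that blocks cyclooxygenases, and atorvastatin is a statin, which blocks cholesterol synthesis. Tumor-free epithelium (4 arrays) and tumor-bearing epithelium (4 arrays) were colon epithelium of mice without and with tumors, all labelled as given atorvastatin at 100 ppm. The protocol describes tumor-bearing mice only on plain chow or both drugs; the labels were followed. No group was epithelium on plain chow, so a comparison of untreated adenoma with epithelium also differs by drug.

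Collagens are proteins of the extracellular matrix whose chains wind around each other into long helices, for which glycine must recur at regular intervals. Fibrillar chains such as those of types I, III and V assemble into the fibrils of the lamina propria and submucosa and are made mainly by fibroblasts. Type IV chains form the sheet on which the colon epithelium rests: the chains encoded by Col4a1 and Col4a2 occur in nearly all basement membranes, whereas those encoded by Col4a3 to Col4a6 have restricted sites, with the Col4a5 and Col4a6 chains known from the basement membrane around smooth muscle.

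The regular glycine is visible in the array's own 60-base probes. The search looked for GGN codons at every ninth base in any frame, on the probe's own strand. In 3 of the 78 probes, all of fibrillar chains, such a codon stood at every position of the register. These were additional probes of their genes, not those used for the levels below. They are shown as the clearest view of what a collagen transcript is, with the glycine codons in capitals:
Col11a2: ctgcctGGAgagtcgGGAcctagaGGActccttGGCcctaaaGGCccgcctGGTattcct
Col5a1: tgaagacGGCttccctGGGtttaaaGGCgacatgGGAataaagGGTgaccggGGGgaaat
Col5a3: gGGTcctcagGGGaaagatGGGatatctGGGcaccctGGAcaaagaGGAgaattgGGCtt
The Col11a2 probe lies on mouse build mm7 at chr17:32131401-32131567 on the plus strand, the Col5a1 probe at chr2:27994034-27996457 on the plus strand and the Col5a3 probe at chr9:20655471-20656200 on the minus strand. Each span is longer than the probe, so each probe crosses at least 1 intron and reads exons joined in the mRNA. They were well above background on 8, 12 and 3 of the 15 arrays in that order. Of 28 genes with several probes, the probe used was the one nearest the 3′ end in 22, and of the 38 probes not used, 22 were above background on 3 arrays or fewer.

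Upstream sequences are shown for 4 called genes whose levels did not overlap between adenoma and epithelium, chosen as examples after their values were seen: Col9a2 and Col7a1, which were higher in adenoma, and the head-to-head neighbours Col4a5 and Col4a6, which were lower. They were taken from RefSeq on build GRCm38.p6 and run 5′ to 3′ on the gene's strand and stop before the first annotated transcribed base of the gene. Capitals mark matches, on either strand, to CTTTGAT (the core recognised by Tcf and Lef factors), GGGCGG (the GC box) or CCAAT:
Col9a2: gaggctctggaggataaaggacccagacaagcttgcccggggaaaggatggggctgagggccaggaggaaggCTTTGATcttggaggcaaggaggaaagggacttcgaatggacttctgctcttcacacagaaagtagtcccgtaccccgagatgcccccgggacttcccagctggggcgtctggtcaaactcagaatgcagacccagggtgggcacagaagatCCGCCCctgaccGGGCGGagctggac
Col7a1: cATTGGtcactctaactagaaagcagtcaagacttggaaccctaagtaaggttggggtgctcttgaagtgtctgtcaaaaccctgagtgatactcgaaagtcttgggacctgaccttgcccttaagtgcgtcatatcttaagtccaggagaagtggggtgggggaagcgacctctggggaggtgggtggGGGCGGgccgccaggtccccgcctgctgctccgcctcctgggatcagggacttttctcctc
Col4a5: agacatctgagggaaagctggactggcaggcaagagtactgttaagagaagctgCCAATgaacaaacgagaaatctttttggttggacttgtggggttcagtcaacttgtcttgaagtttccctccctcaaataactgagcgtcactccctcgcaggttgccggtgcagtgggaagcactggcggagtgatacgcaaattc
Col4a6: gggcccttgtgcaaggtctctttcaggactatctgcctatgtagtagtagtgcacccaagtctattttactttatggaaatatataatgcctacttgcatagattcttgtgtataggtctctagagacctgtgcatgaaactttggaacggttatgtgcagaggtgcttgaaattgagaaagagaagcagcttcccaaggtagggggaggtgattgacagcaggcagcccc
The windows lie at chr4:121039316-121039565 (plus strand), chr9:108953336-108953585 (plus), chrX:141475169-141475369 (plus) and chrX:141474096-141474326 (minus). The annotated starts of Col4a5 and Col4a6 are 1274 bases apart on chromosome X and their transcripts run in opposite directions. Of the 40 members, 32 matched the promoter table by symbol. In windows of 300 bases, CTTTGAT stood in 1 of the 32 (Col9a2, 3.12%) and in 3.73% of all 32851 promoter windows. GGGCGG stood in 19 of 32 (59.4%) against 35.7% of all, CCAAT in 12 of 32 (37.5%) against 37.4%, and TATAAA in 5 of 32 (15.6%) against 13.6%. The windows counted run from 250 bases before the start to 50 after it, past the printed stretches. Col4a5 and Col4a6 are among the 19 with GGGCGG, their matches lying outside what is printed. These matches describe letters and are not sites of binding.

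Levels are log2 signals relative to the 75th percentile of each array, so 0 is the level that 3 in 4 probes lie below. The share of probes well above background ranged from 56.5% to 75.5% over the arrays. It was lowest in tumor-bearing arrays 4 (56.5%), 3 (57.2%) and 1 (59.8%) and treated adenoma array 4 (59.0%). Every other array had 66.3% or more. Tumor-bearing epithelium was thus the group with the poorest detection. Some arrays of 1 group were nearly identical, differing by less than the noise of repeated spots on an array, and were averaged, which left 10 samples: 2 of untreated adenoma (arrays 1 and 2 averaged, and array 3), 2 of treated adenoma (array 1, and arrays 2 to 4 averaged), 3 of tumor-free epithelium (arrays 1 and 2, and arrays 3 and 4 averaged) and 3 of tumor-bearing epithelium (arrays 1 and 3 averaged, array 2 and array 4). Values below are given in that order. Tumor-free array 2 and tumor-bearing array 2 were also nearly identical (r = 0.994), though their labels put them in different groups, and were kept apart. The labels speak of biological replicates without naming the mice.

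The cell type labels were checked against markers. All 11 epithelial markers were well above background on every array. So were 10 or 11 of 11 smooth muscle markers, 10 to 14 of 15 fibroblast markers and 9 or 10 of 11 endothelial markers, depending on the group, so the dissected material was not epithelium alone. The log2 of the summed smooth muscle markers was 3.93 to 4.18 in untreated adenoma, 4.75 to 5.002 in treated adenoma, 5.12 to 5.99 in tumor-free epithelium and 5.68 to 6.03 in tumor-bearing epithelium. The fibroblast sum was 6.33 to 6.41, 6.32 to 6.76, 5.40 to 5.73 and 5.08 to 5.75 in the same order, and the epithelial sum 8.82 to 8.89, 8.44 to 8.97, 9.16 to 9.48 and 8.94 to 9.67. Smooth muscle sums were thus lower, and fibroblast sums higher, in all 4 adenoma samples than in all 6 epithelium samples. The sums add signals before the log2, so the brightest markers weigh most, in the fibroblast list Vim, Dcn and Pdgfrb. Markers of that list went both ways. Vim was higher, and Fap and Mfap5 lower, in every adenoma sample than in every epithelium sample. The part of smooth muscle cells and fibroblasts in the collagen differences was not tested. In such bulk RNA, fewer cells of a type and less RNA per cell cannot be told apart.

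The first comparison set all adenoma (4 samples) against all epithelium (6 samples). The nearly identical tumor-free array 2 and tumor-bearing array 2 count as separate samples among the 6. If they are not independent, the errors and p-values of this comparison are too small. Of the 40 genes, 35 were above background on every unflagged array of at least 1 of the 4 groups and were tested, and 9 passed limma's moderated test at an adjusted p of 0.05 (6 higher and 3 lower in adenoma). Over all 18913 genes tested, 21.8 percent were called (9.14 percent higher, 12.6 percent lower), so 9 of 35 was close to the share of all genes. The median difference of the 35 was 0.05 on the log2 scale, beside -0.17 over all genes tested, with 19 above 0 and 16 below. In 7 of the 35 the sides did not overlap, where 17.4 percent of all genes tested did not.

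No fibrillar chain passed, although all 11 were tested, and none had sides that did not overlap. Their median difference was 0.08, with a range from -0.81 for Col11a1 to 1.90 for Col24a1, and 7 of 11 lay above 0. Col1a1, the main chain of type I collagen, was at 2.69 and 1.44 in untreated adenoma, 3.33 and 4.84 in treated adenoma, 3.17, 2.89 and 4.03 in tumor-free epithelium and 2.77, 2.72 and 2.17 in tumor-bearing epithelium. Both the lowest and the highest of the 10 values came from adenoma, and the sides overlapped throughout. The difference between adenoma and epithelium was 0.12 ± 0.43 (SE; adjusted p = 0.862).

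Col1a2, its partner chain, was at 4.42 and 4.58 in untreated adenoma, 4.96 and 5.78 in treated adenoma, 5.18, 5.38 and 5.07 in tumor-free epithelium and 5.50, 5.40 and 5.11 in tumor-bearing epithelium (difference -0.34 ± 0.29, adjusted p = 0.419). Both untreated adenoma samples lay below all 6 epithelium samples, and 1 treated sample lay above them. Col3a1, the chain of type III collagen that shares fibrils with type I, was at 5.24 and 5.92, 5.33 and 5.49, 5.95, 5.74 and 6.06, and 6.02, 5.77 and 5.13 in the same order (difference -0.29 ± 0.30, adjusted p = 0.520). Tumor-bearing array 4 had the lowest Col3a1 of all samples.

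The type V chains, which start fibrils, differed from each other. Col5a1 was at 2.34 and 2.83 in untreated adenoma, 3.42 and 2.62 in treated adenoma, 3.59, 3.16 and 2.78 in tumor-free epithelium and 3.81, 3.18 and 1.59 in tumor-bearing epithelium (difference -0.22 ± 0.45, adjusted p = 0.751). Its extremes were both in tumor-bearing epithelium. Col5a2 was at 0.95 and 1.11 in untreated adenoma and 1.32 and 0.14 in treated adenoma, against 0.39, -0.97 and 0.98 in tumor-free and -1.46, -0.92 and -0.46 in tumor-bearing epithelium. All 4 adenoma samples lay above the 3 of tumor-bearing epithelium, 2 of them within the range of tumor-free epithelium and 2 above it, and the difference of 1.29 ± 0.44 did not pass (adjusted p = 0.064).

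The absence of fibrillar calls depended on the run. Of 29 alternative runs, Col5a2 was called in 6, Col11a2 in 5, Col11a1 in 2 and Col24a1 in 1. Without tumor-bearing array 4 the number of collagens called in this comparison rose from 9 to 14 (9 higher, 5 lower), and it then included 3 fibrillar chains: Col5a2 (1.41, adjusted p = 0.043), Col11a2 (1.22, adjusted p = 0.0451) and Col11a1 (-1.02, adjusted p = 0.0454). The other 2 added were Col12a1 (1.73) and Col22a1 (-1.30). The share of all genes called in that run is not given, so the rise does not show a change particular to collagens. For Col22a1 the direction turned with the probe: over all samples a second probe differed by 1.76 (adjusted p = 0.0682), the probe used by -0.96.

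**Figure D1:**
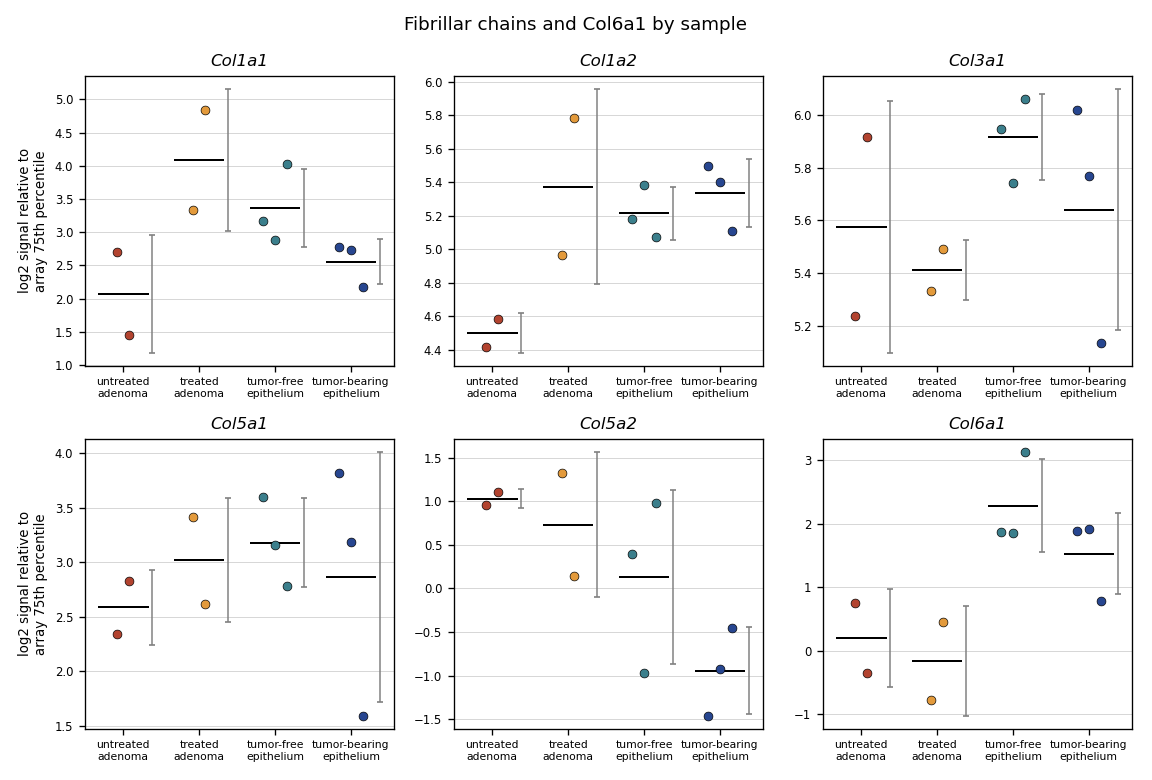
Log2 signal relative to the array's 75th percentile (vertical axis) of 5 fibrillar chains and the beaded filament chain Col6a1 in the 4 groups (horizontal axis). Points are samples (2, 2, 3 and 3 per group), black lines group means and grey bars 1 SD on each side; Col1a1 spans 1.44 to 4.84 within adenoma alone, while Col6a1 lies at 0.75 or below in adenoma and at 0.79 or above in epithelium.

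The type IV chains of the basement membrane fell into 2 patterns. Col4a5 and Col4a6 were lower in adenoma than in epithelium and passed the test, while Col4a1 and Col4a2 had positive differences that did not. The 5 tested chains had a median of -0.65 and a range from -6.37 to 0.89. No fibrillar chain was called against 2 of 5 type IV chains, but as classes they were not separable sample by sample. Taken as the median over a class of each gene's deviation from its own mean, the fibrillar value minus the type IV value was 0.63 and -0.78 in untreated adenoma, 0.92 and 0.96 in treated adenoma, 0.75, -0.22 and -0.80 in tumor-free epithelium and 0.61, -0.61 and -0.80 in tumor-bearing epithelium. Positive and negative values occurred in 3 of the 4 groups, and both sides overlapped.

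Col4a6 had the largest difference of all collagens. It was at -4.95 and -6.92 in untreated adenoma and -4.08 and -4.53 in treated adenoma, against 1.19, 1.60 and 1.30 in tumor-free and 1.70, 1.65 and 0.05 in tumor-bearing epithelium. Every adenoma sample was below every epithelium sample, and the fall was 82.6-fold (-6.37 ± 0.48 on the log2 scale, adjusted p = 2.18e-05). It was above background on 6 of the 7 adenoma arrays.

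The size of the Col4a6 difference depended on the probe. The probe used lies at chrX:135829764-135829823 (mm7, minus strand), the most 3′ of 3 probes. The second, at chrX:135831206-135831265 and above background on all 15 arrays, was at -3.14 and -3.02, -3.51 and -3.10, -2.25, -2.30 and -2.94, and -1.71, -1.79 and -2.53 in the order of groups above. Again all adenoma values lay below all epithelium values, but the difference was 1.91-fold (-0.94 ± 0.32) and did not pass with each probe as a feature of its own (adjusted p = 0.0709). The third was above background on 3 arrays and was not tested.

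Col4a5, which encodes the partner of the Col4a6 chain, was at -5.89 and -6.94 in untreated adenoma, -5.25 and -5.76 in treated adenoma, -2.19, -2.59 and -2.06 in tumor-free epithelium and -4.41, -3.29 and -3.18 in tumor-bearing epithelium. The sides did not overlap, and the fall was 8.04-fold (-3.01 ± 0.37, adjusted p = 0.000373). It was above background on 5 of 7 adenoma arrays and on all 8 epithelium arrays. Beside these falls, 5 of the 11 smooth muscle markers tested were lower in adenoma and none higher, with a list median of -1.19. Among the 5 were the muscle filament regulators Lmod1 (-3.42) and Cnn1 (-3.40) and the smooth muscle myosin Myh11 (-2.26). Over all genes tested, 12.6 percent were lower, with a median of -0.17. Whether the marker falls bear on those of Col4a5 and Col4a6 was not tested.

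Col4a1 was at 3.66 and 4.16 in untreated adenoma, 3.04 and 3.74 in treated adenoma, 2.35, 2.87 and 3.52 in tumor-free epithelium and 2.54, 2.97 and 2.43 in tumor-bearing epithelium. Each adenoma sample was above all tumor-bearing samples, and 1 tumor-free sample lay within the adenoma range. The difference of 0.87 ± 0.34 did not pass (adjusted p = 0.0916), whereas a second Col4a1 probe, tested as its own feature, did (1.53 ± 0.38, adjusted p = 0.0213). Col4a2 differed by 0.89 ± 0.53 (adjusted p = 0.248) and Col4a4 by -0.65 (adjusted p = 0.268). Col4a3 was above background on 0 of 7 adenoma and 3 of 8 epithelium arrays and was not tested.

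**Figure D2:**
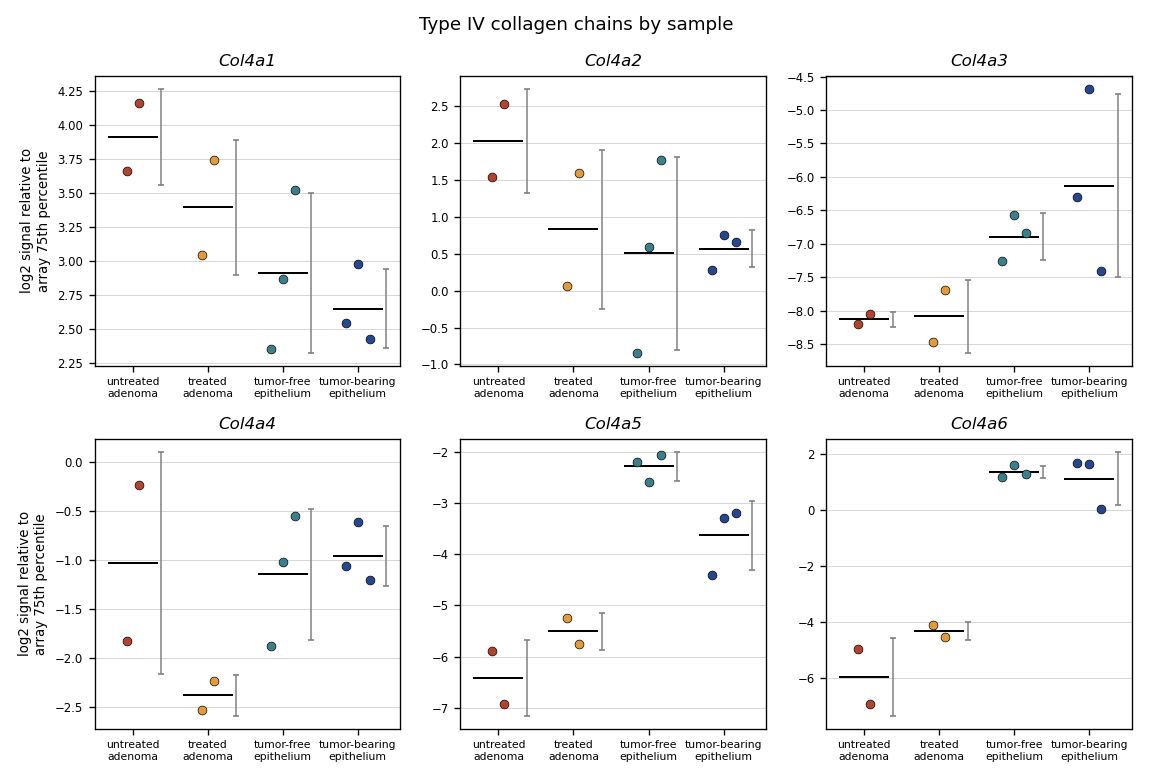
Log2 signal relative to the array's 75th percentile (vertical axis, a separate scale per panel) of the 6 type IV chains in the 4 groups (horizontal axis). Points are samples (2, 2, 3 and 3 per group), black lines group means and grey bars 1 SD on each side; Col4a5 and Col4a6 are lower in all 4 adenoma samples than in all 6 epithelium samples, while Col4a1, Col4a2 and Col4a4 overlap.

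Of the 3 chains of anchoring fibrils and multiplexins, Col7a1 and Col18a1 were higher in adenoma and Col15a1 was not called. Col7a1, the chain of the anchoring fibrils that tie basement membrane to the matrix below, was at 1.88 and 1.12 in untreated adenoma and 1.85 and 1.33 in treated adenoma, against -0.61, -0.17 and -1.26 in tumor-free and -0.65, -0.08 and -2.25 in tumor-bearing epithelium. The rise was 5.23-fold (2.39 ± 0.46, adjusted p = 0.00525) with no overlap. Col18a1, whose product carries the endostatin fragment, was at 3.95 and 3.93, 3.84 and 4.14, 2.23, 2.01 and 1.18, and 2.57, 2.21 and 0.63. The 4 adenoma samples lay close together and above all epithelium samples, a 4.47-fold rise (2.16 ± 0.42, adjusted p = 0.00563), and a second probe gave 2.39 ± 0.43 (adjusted p = 0.00438). Col15a1 differed by 0.05 (adjusted p = 0.929).

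Col9a2 and Col9a3, chains of the fibril-associated type IX collagen best known from cartilage, had the largest rises. Col9a2 was at -0.45 and -1.25 in untreated adenoma and -0.53 and 0.94 in treated adenoma, against -4.33, -3.84 and -4.24 in tumor-free and -3.74, -3.54 and -4.48 in tumor-bearing epithelium. The sides lay far apart, and the rise was 13.0-fold (3.70 ± 0.38, adjusted p = 0.00014). Col9a3 was at -2.06 and -0.21, -5.57 and -1.91, -6.53, -7.10 and -6.78, and -5.54, -5.94 and -7.43, and rose 17.4-fold (4.12 ± 0.71, adjusted p = 0.00289). Treated adenoma array 1 lay within the epithelium range. The gene was above background on only 3 of 8 epithelium arrays, so its fold is against a side mostly near background. Their partner Col9a1 was not tested, and the other 6 FACIT chains tested were not called, with differences from -1.05 to 1.23.

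Among the transmembrane chains, Col23a1 was at -3.02 and -2.85 in untreated adenoma, -3.22 and -1.98 in treated adenoma, -5.53, -5.75 and -5.71 in tumor-free epithelium and -4.09, -4.93 and -4.66 in tumor-bearing epithelium. It rose 5.08-fold with no overlap (2.35 ± 0.33, adjusted p = 0.000913), and its second probe 9.97-fold (3.32 ± 0.33, adjusted p = 0.00016). Col17a1, the hemidesmosome collagen that fastens epithelial cells to the basement membrane, was at -6.80 and -3.99, -0.77 and 1.62, -3.70, -2.75 and -4.43, and -7.11, -2.90 and -7.30. Both treated adenoma samples were above all others, and both untreated samples within the epithelium range, so the pooled difference of 2.21 ± 0.96 did not pass (adjusted p = 0.126).

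**Figure D3:**
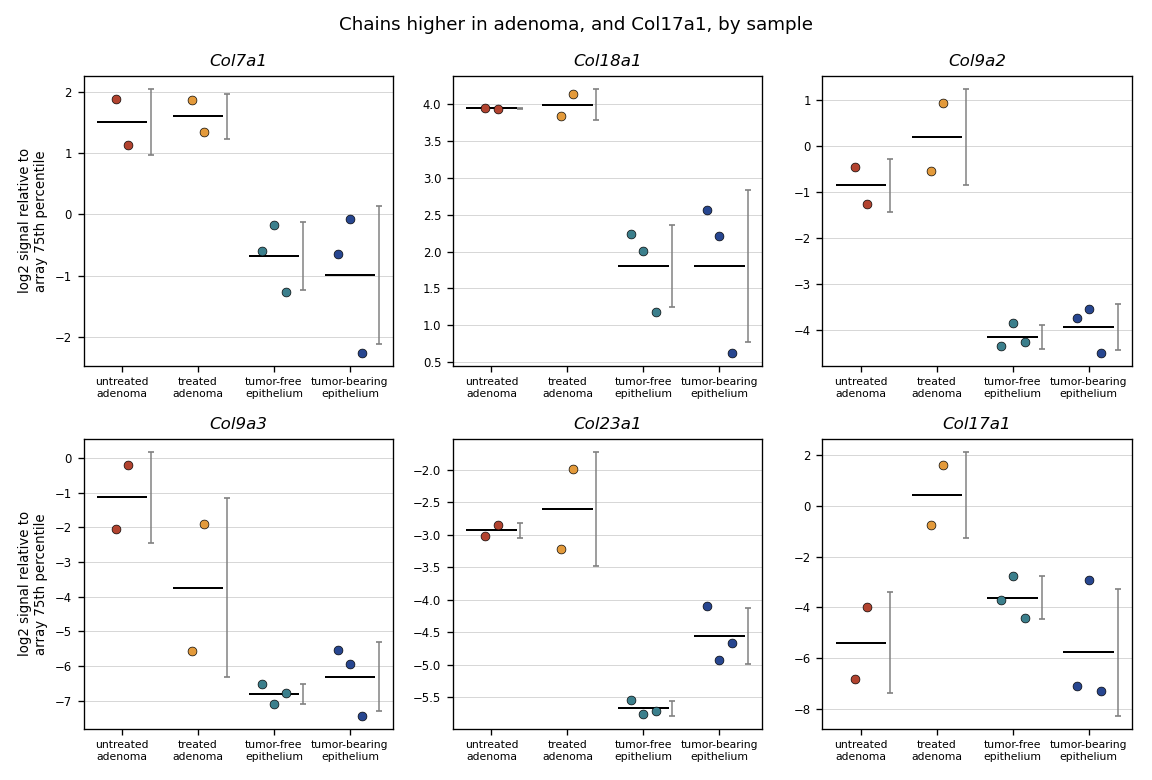
Log2 signal relative to the array's 75th percentile (vertical axis, a separate scale per panel) of Col7a1, Col18a1, Col9a2, Col9a3, Col23a1 and Col17a1 in the 4 groups (horizontal axis). Points are samples (2, 2, 3 and 3 per group), black lines group means and grey bars 1 SD on each side; Col7a1, Col18a1, Col9a2 and Col23a1 are higher in every adenoma sample than in every epithelium sample, and Col17a1 is high in treated adenoma only (-0.77 and 1.62).

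Col6a1, a chain of the beaded filaments around cells, was lower in adenoma. It was at 0.75 and -0.34 in untreated adenoma, -0.77 and 0.45 in treated adenoma, 1.87, 1.85 and 3.12 in tumor-free epithelium and 1.88, 1.92 and 0.79 in tumor-bearing epithelium, a 3.68-fold fall (-1.88 ± 0.44, adjusted p = 0.0148). The sides came close to each other without overlap, and the call was lost without untreated array 3 (-1.61, adjusted p = 0.0704) or treated array 1 (-1.58, adjusted p = 0.0681). Its partner chains Col6a2 (-0.87, adjusted p = 0.211) and Col6a3 (-0.04, adjusted p = 0.947) were not called. Col8a2, a network chain, rose 2.94-fold (1.56 ± 0.49, adjusted p = 0.0478) with overlapping sides, and lost its call in 14 of 29 alternative settings. It was at -5.38 and -4.69 in untreated and -3.06 and -2.97 in treated adenoma. Epithelium was at -4.71, -5.49 and -4.71 (tumor-free) and -7.68, -5.87 and -5.06 (tumor-bearing). Both treated samples thus lay above all others, and the untreated ones close to tumor-free epithelium.

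**Figure D4:**
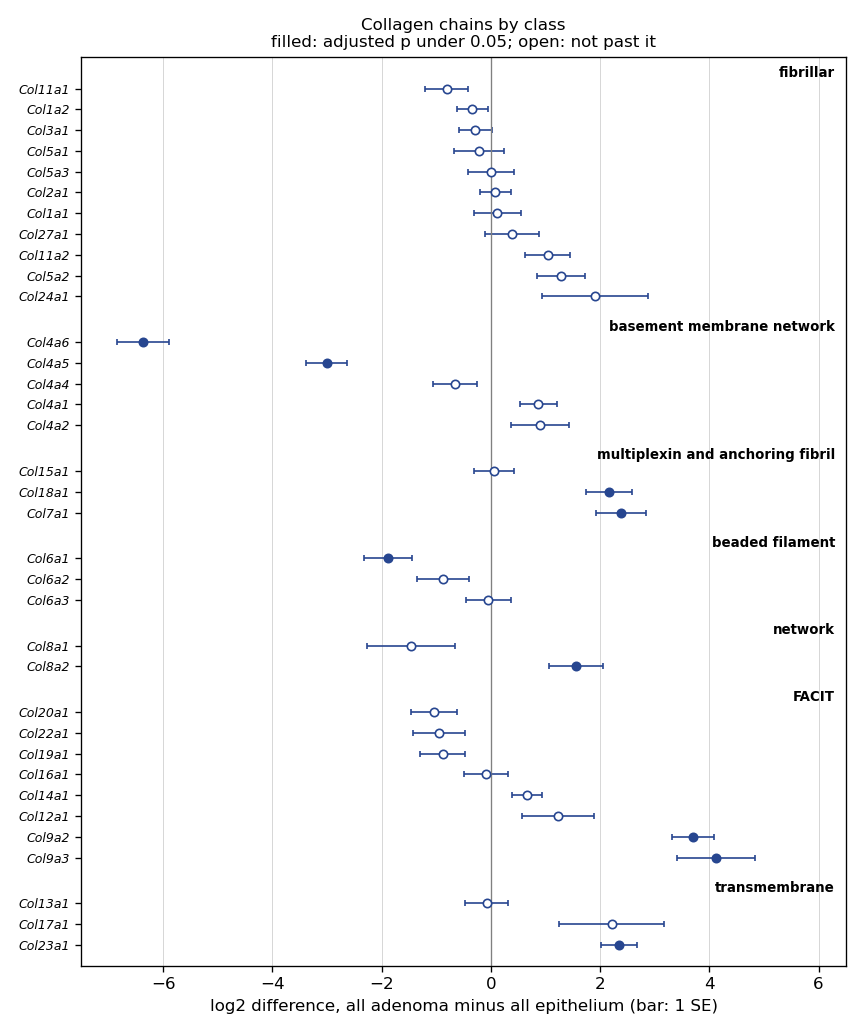
Log2 difference between all adenoma (4 samples) and all epithelium (6 samples) on the horizontal axis for the 35 tested collagen genes, grouped by class on the vertical axis. Points are limma estimates, bars 1 SE on each side and filled points an adjusted p under 0.05; the 11 fibrillar chains are all open and lie between -0.81 and 1.90, and the lowest points are Col4a6 (-6.37) and Col4a5 (-3.01).

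Against tumor-bearing epithelium alone, untreated adenoma (2 samples against 3) had 4 higher and 2 lower of 34 tested collagens, where 11.6 percent of all 17403 genes tested were called (5.12 percent higher, 6.46 percent lower). Col4a6 fell 134-fold (-7.07 ± 0.67, adjusted p = 0.000271), a call that its second probe did not give (-1.07, adjusted p = 0.174), and Col4a5 by 2.78 ± 0.52 (adjusted p = 0.00858). Col9a3, above background on 3 of 3 untreated but only 1 of 4 tumor-bearing arrays, rose 35.9-fold (5.17 ± 1.01, adjusted p = 0.0104), a fold against a group mostly near background. Col9a2 rose 8.39-fold (adjusted p = 0.0066), Col7a1 5.65-fold (adjusted p = 0.0364) and Col18a1 4.40-fold (adjusted p = 0.0467). The groups did not overlap in 18 of the 34, close to the 46.3 percent of all genes tested. None of the 11 fibrillar chains was called (median -0.06), and the 5 type IV chains tested had a median of -0.07. Without untreated array 3, 2 collagens were called, and without the averaged untreated arrays 1 and 2, 3 were.

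Treated adenoma against tumor-bearing epithelium (2 samples against 3) gave 6 higher and 2 lower of 33 tested, beside 13.2 percent of all 17003 genes tested (6.41 percent higher, 6.79 percent lower). Col17a1, which was not tested with untreated adenoma, rose 73.4-fold (6.20 ± 1.36, adjusted p = 0.0155), and Col8a2 9.07-fold (adjusted p = 0.0152; 1.16 on the log2 scale and adjusted p = 0.296 for untreated adenoma). They were above background on all 4 treated arrays but only on 1 of 4 and 1 of 3 tumor-bearing arrays, so these folds too are against a group mostly near background. Col23a1 rose 3.89-fold (adjusted p = 0.0231; 1.63 and adjusted p = 0.0525 for untreated adenoma), and Col9a3 was not called (2.57 ± 1.01, adjusted p = 0.123). Col9a2 rose 17.4-fold (4.12 ± 0.54, adjusted p = 0.00111), Col7a1 6.02-fold (adjusted p = 0.0277) and Col18a1 4.56-fold (adjusted p = 0.0391). Col4a6 fell 43.4-fold (-5.44 ± 0.67, adjusted p = 0.000806; -1.30 and adjusted p = 0.0995 with its second probe) and Col4a5 3.68-fold (adjusted p = 0.0414). The groups did not overlap in 15 of 33, beside 45 percent of all genes tested. The 10 fibrillar chains tested had a median of 0.20 with none called, and the 5 type IV chains a median of -1.43. The 2 adenoma comparisons share the same 3 epithelium samples. The count fell from 8 to 5 without treated array 1 or without tumor-bearing array 2, and to 2 without the averaged treated arrays 2 to 4.

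Several of these groups were scanned on shared dates, as the file headers give them, and on those dates the leading differences kept their sign. On 2 dates each, Col4a6 differed by -6.64 and -6.64 between untreated adenoma and tumor-bearing epithelium and by -5.80 and -4.44 between treated adenoma and the same epithelium. Col9a2 differed by 3.05 and 3.62, and by 3.59 and 5.33. Col7a1 differed by 2.28 and 2.51, and by 2.53 and 3.49. Col9a3 differed by 3.65 and 3.56 for untreated adenoma, but by 0.08 and 5.52 for treated adenoma. Each such value rests on 1 or 2 arrays a side, and untreated arrays 1 and 2, like tumor-bearing arrays 1 and 3, are near-identical pairs, so the dates are not independent of each other.

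The effect of both drugs was addressed by treated against untreated adenoma (2 samples against 2). No collagen of 34 tested was called by limma, where 0.216 percent of all 17629 genes tested were (0.113 percent higher, 0.102 percent lower), and 2087 of those genes had an unadjusted p under 0.05. Col17a1 had the largest difference, 5.82 ± 1.49 (adjusted p = 0.198), with treated samples at -0.77 and 1.62 and untreated ones at -6.80 and -3.99; of the 2 untreated arrays that gave an unflagged Col17a1 spot, 1 was above background. A second Col17a1 probe differed by 6.45 (adjusted p = 0.0931). Both type I chains were higher in each treated sample than in each untreated one, Col1a1 by 2.01 ± 0.66 (adjusted p = 0.291) and Col1a2 by 0.87 ± 0.44 (adjusted p = 0.482), a lack of overlap that 46.9 percent of all genes tested shared. On the 2 shared scan dates Col1a1 differed by 0.61 and 3.37. The fibrillar median was -0.26 and that of the 4 type IV chains tested -0.86, beside 0.05 over all genes tested. With each array counted as its own sample, 5 collagens passed (Col17a1, Col1a1, Col1a2, Col8a2 and Col9a2).

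Tumor-bearing was compared with tumor-free epithelium (3 samples each) to ask whether epithelium differs in mice that carry adenomas. Tumor-free array 2 and tumor-bearing array 2, which were close to identical, stand on opposite sides here. No collagen of 33 tested was called by limma, nor any of the 17648 genes tested (0 percent, with 463 at an unadjusted p under 0.05). The differences that were largest beside their error were -1.35 ± 0.47 for Col4a5 and 1.10 ± 0.42 for Col23a1, and the largest in size were -2.15 ± 1.22 for Col17a1 and 1.65 ± 1.02 for Col8a1, each with an adjusted p of 0.997. The Col8a1 value rested on tumor-bearing array 4 and was 0.19 without it. The groups did not overlap in 4 of the 33, beside 7.44 percent of all genes tested. The fibrillar median was -0.31 and the type IV median -0.23, beside 0.01 over all genes tested. The class median deviation of the fibrillar chains was lowest in tumor-bearing array 4, at -0.69 against -0.18 to 0.36 elsewhere, though not every chain was lowest there.

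Genes that act on collagen were read from lists in the comparison of all adenoma with all epithelium. In it, 9.14 percent of all genes tested were called higher and 12.6 percent lower. Of the 12 tested genes of collagen processing and crosslinking, 6 were higher and 1 lower, with a median of 0.92 beside -0.17 over all genes. Those with the highest moderated t were Pxdn, the peroxidasin that crosslinks type IV collagen (3.64), Lox, the lysyl oxidase that crosslinks fibrils (3.16), Pcolce2, an enhancer of procollagen cleavage (4.43), and Tll1, a protease that cleaves procollagen ends. Pcolce2 was at 1.81 and 1.01 in untreated adenoma but at -2.93 and -4.80 in treated adenoma, the last within the range of epithelium. Tll1 was above background on 3 of 7 adenoma arrays and 0 of 8 epithelium arrays, and no fold is given for it. Pcolce, the relative of Pcolce2, fell by 1.00. Lox was at -0.93 ± 0.03 (SD, n = 2) in untreated and -1.36 ± 0.28 (n = 2) in treated adenoma, against -4.47 ± 0.50 (n = 3) in tumor-free and -4.12 ± 1.02 (n = 3) in tumor-bearing epithelium.

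The same shares of all genes tested (9.14 percent higher, 12.6 percent lower) stand beside the next lists. Of 16 basement membrane partners tested, 2 laminin chains rose, Lama1 (4.19, above background on 2 of 8 epithelium arrays) and Lama5 (2.65). Lama2, the laminin chain of muscle, fell by 2.19, and the list median was 0.87. Of 18 genes that hydroxylate, fold or export collagen, 1 rose (the prolyl hydroxylase P4ha2, 1.41) and 1 fell (Mia3, needed for procollagen export, by 1.05). Of 14 fibril partners, fibronectin (Fn1) rose by 3.56, and Ogn, a small proteoglycan, and Tnxb, a tenascin above background on 3 of 7 adenoma arrays, fell by 4.16 and 4.04. Of 10 collagen receptors, none rose, and 2 were lower: the integrin Itga11 (-1.86) and Gp6, which was above background on 0 of 7 adenoma arrays and was at least 10.4-fold lower. Among Tgf-beta ligands and their binding proteins, Ltbp2 rose by 5.60 and Tgfb3 by 2.37, and Ltbp4 fell by 1.56.

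The marker lists moved unevenly. Over all genes tested, 9.14 percent were called higher and 12.6 percent lower. Of 14 fibroblast markers tested, Vim (1.99) and Twist1 (2.86) were higher, and Fap (-2.91) and Mfap5 lower, Mfap5 at least 22.8-fold, being above background on 0 of 7 adenoma arrays, with a list median of 0.57. Of 11 epithelial markers, 4 were lower (Krt20, Cdx2, Krt19 and Vil1) and none higher. Of 11 endothelial markers 1 rose (Cdh5, 1.35), of 5 pericyte markers none was called, of 3 enteric glia markers S100b fell by 2.53, and of 7 macrophage markers Cd163 fell by 6.34 and was above background on 1 of 7 adenoma arrays. Their part in the collagen differences was not tested.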

How the data were processed

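The 15 arrays were 1-colour Agilent mouse whole genome arrays hybridised, per the labels' protocols, with linearly amplified RNA from 10 ng of microdissected material, a procedure that favours 3′ ends. The authors read the scans with Agilent Feature Extraction 9.5.3, per the file headers; the deposited processed intensity is background-subtracted and not normalized between arrays. Deposited flags (well above background, saturated, outlier) were used as given; no collagen probe was saturated. A log2 table that the authors deposited served as an alternative, its scale checked against the scanner files. In it 4 columns, all of tumor-bearing epithelium, ran opposite to the order of their scanner files. They were used under their own sample labels, which stay within that group.

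Levels were log2 of the processed intensity minus the array's 75th percentile. Outlier spots (0.263% to 9.12% per array) were dropped, spots of a probe averaged, and the probe with the highest mean kept per gene. Nearly identical arrays of 1 group (SD of the log2 difference 0.0857 to 0.170, against spot noise of 0.188 to 0.218) were averaged; p-values measure the spread between the remaining 10 samples. limma 3.58.1 (R 4.3.3) was fitted over all groups (residual degrees of freedom 6, prior 3.9) as a two-sided test, p-values being adjusted by Benjamini-Hochberg over all genes tested and a threshold of 0.05. Testing required a signal well above background on every unflagged array of at least 1 of the groups compared, with at least 2 such arrays. Folds are 2 to the power of the log2 difference; for a gene above background on no array of a side, "at least" gives the fold against the higher of its own signal and the lowest signal above background on each array. Named were the called collagens, always the main chains of types I, III, IV, V, VI, VII, XV, XVII and XVIII, and of each list up to 4 called genes per direction with the highest moderated t; chains outside this rule were named after their values were seen. Names of non-members are from RefSeq (GRCm38.p6). The code was tested on simulated data. The number of arrays limits the precision. A result for a listed gene is not reported here. Members, classes and lists were chosen with earlier results of these data known.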

Additional observations from a re-analysis of the deposited data

Results flagged for a closer look

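In 70 tests of a single sample standing apart from its side (adenoma, 4 samples, or epithelium, 6 samples), 3 values lay farther from the rest than Dixon's critical value allows, which is 0.829 of the range for 4 samples and 0.625 for 6. Chance alone gives about 1 in 20. All 3 were in tumor-bearing epithelium array 4, among the 6 epithelium samples. Col3a1 was at 5.13 there, against 5.74 to 6.06 in the others. Col4a6 was at 0.048, against 1.19 to 1.70. Col8a1, a network chain, was at 4.74, against -0.56 to 0.91. Groups of 2 or 3 samples were not tested in this way.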

How the results depend on the processing

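No called collagen difference changed direction. Of 23 called differences over the comparisons, 7 passed under every alternative run and 16 were lost under at least 1. In all adenoma against all epithelium, Col4a5, Col7a1, Col9a2, Col9a3, Col18a1 and Col23a1 passed under all of them. Col4a5, Col7a1, Col9a2 and Col9a3 have only 1 probe each, so no second probe could be tried. A second probe was the only alternative that cost Col4a6 its call there.

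The number of collagens called moved most with how nearly identical arrays were counted. With each array its own sample it was 18 (against 9) in all adenoma against all epithelium, 14 (against 6) in untreated adenoma and 16 (against 8) in treated adenoma against tumor-bearing epithelium, and 5 (against 0) in treated against untreated adenoma. With the slide as a random block it was 19, 19, 17 and 7, and with the scan date as a fixed block 15, 11 and 6 in the last 3; a scan date block was not run where tumor-free epithelium enters, since its dates held no other group. With the replicate block it was 20, 16, 16 and 5. Deviations of arrays that share a number across groups correlated at r from -0.30 to 0.52 (median 0.08, 21 pairs). Other pairs across groups ran from -0.51 to 0.42 (median -0.02, 63 pairs), so whether the numbers pair mice cannot be told. These fits treat nearly identical arrays as separate samples. Counts of collagens under alternative runs, here and above, are given without the share of all genes called in the same run. They do not show a change particular to collagens. Leaving out the pair of arrays that were close to identical across groups gave 5 against 8 in treated adenoma against tumor-bearing epithelium.

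Leaving out arrays in turn gave 7 to 14, 2 to 9 and 2 to 8 collagens in the first 3 comparisons, and 0 in the other 2. Leaving out all arrays of an averaged sample, and testing other probes of a gene, were chosen after seeing the data. Of 11 second probes above background on most arrays, 8 had the sign of the probe used in the first comparison. The number was 7 for untreated and 6 for treated adenoma against tumor-bearing epithelium. It was 9 for treated against untreated adenoma and 5 between the epithelium groups. For Col1a1, untreated adenoma against tumor-bearing epithelium was -0.49 with the probe used and 1.49 with a second probe, neither called. The fibrillar median of untreated adenoma against tumor-bearing epithelium, -0.06, was 0.45 after quantile normalization and 0.48 in the deposited table.

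Signal over background limits Col9a3, Col8a2 and Col17a1, which were near background on most tumor-bearing arrays.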
